A study of Mus musculus with 16 samples.

Results

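The livers described here were taken 5 h after concanavalin A from mice that received adipose tissue-derived stem cells at 3 h, and they were compared with livers taken at the same time from mice that received concanavalin A alone. All 6 livers were chosen by their treatment labels, 3 in each group, out of 16 samples in the study. In all groups, female C57Bl/6 mice were injected with 300 µg of concanavalin A, and the labels state no age. Mice No. 1, 2 and 3 were given 100000 stem cells through the tail vein 3 h after the lectin, so that their livers were taken 2 h after the cells. Mice No. 4, 5 and 6 were given no stem cells. The stem cells had been grown in culture from collagenase-digested inguinal fat of C57Bl/6 mice. No mouse without concanavalin A was measured, so every comparison is between injured livers. The other 10 samples are 6 livers taken at 2 h, 3 of them with stem cells given together with concanavalin A, and 4 samples of hepatic inflammatory cells.

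Concanavalin A, a lectin of the jack bean, stimulates T cells and natural killer T cells, and its injection is a common model of acute immune-mediated hepatitis in mice. Interferon-gamma from these cells acts on hepatocytes, endothelial cells and macrophages and induces chemokines, guanylate binding proteins, immunity-related GTPases and the immunoproteasome. Hepatocytes secrete large amounts of protein, and injury and inflammation load their endoplasmic reticulum. The unfolded protein response answers such a load through the sensors IRE1, PERK and ATF6 by raising chaperones and degradation factors. Stem cells of fat are mesenchymal stromal cells that release mediators acting on T cells and macrophages.

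RNA was measured on 1-colour Agilent arrays, 1 per liver, on which 52.1% to 62.5% of the spots were clearly brighter than background. Signals are given as log2 after division by the 75th percentile of that array, and a change is the mean of the 3 livers with stem cells minus that of the 3 livers with concanavalin A alone, with the standard error of a limma fit after ±. All 18 hepatocyte markers tested lay well above background in the 6 livers, and Alb was at 10.80, 10.20 and 10.41 with stem cells at 3 h and at 10.52, 10.08 and 10.09 with concanavalin A alone. The same 18 markers were also detected in hepatic inflammatory cells, so their detection does not set liver apart from those samples. The 6 arrays lay on 3 slides, each with 1 liver of either group, so a within-slide difference is mouse 1 minus 4, mouse 3 minus 5 or mouse 2 minus 6. The standard error rests on all 12 livers, and 2 livers of 2 h stood apart: Cxcl10 was at 3.75 in mouse No. 10 (immediate stem cells) and 2.22 in mouse No. 13 (concanavalin A alone), and at 8.69 to 9.66 in the other 4. Their spread enters the standard error of each change at 5 h, and for some interferon genes and chemokines, such as Gbp6 and Cxcl10, it exceeds the spread among the 6 livers of 5 h.

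Few single genes passed the test. Of 14651 genes, 3 rose (0.0205%) and 2 fell (0.0137%) with stem cells at 3 h at an adjusted p under 0.05, which is 0.0341% in either direction. An unadjusted p under 0.05 was reached by 1064 higher genes (7.26%) and 755 lower genes (5.15%). The 3 livers with stem cells lay wholly above the 3 with concanavalin A alone for 1863 genes (12.7%) and wholly below for 1384 genes (9.45%). These shares are the background for each list below. The median change over all genes was 0.08. With the array median as the scale that median moved to -0.08 and 11 genes passed, 27.3% of them higher, against 60% of the 5. With the 2 livers of 2 h that stood apart left out, 18 genes rose (0.123%) and 30 fell (0.205%), the 5 genes among them. That fit leaves each change at 5 h as it was and alters only its standard error. The call count also depended on single mice of the comparison: it was 1 without mouse No. 1, 3 or 6, 2 without mouse No. 4, 4 without mouse No. 5 and 27 without mouse No. 2, and 14 without the 2 h mouse No. 13. A slide term in the fit of 12 arrays left 4 genes past the threshold, 3 of the 5 among them: Gimap5, Gadd45a and 9130004C02Rik (adjusted p = 0.0493 each), while Reg3g and Ptcra missed it (adjusted p = 0.0521 each).

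Gadd45a, a stress sensor that interacts with cell cycle and p38 kinases and is induced by DNA damage and by PERK and ATF4 signalling, was higher with stem cells. It stood at 4.35, 4.33 and 4.76 in the livers with stem cells at 3 h, against 2.83, 2.94 and 2.78 with concanavalin A alone. The groups lay far apart. It rose by 1.64 ± 0.19 (adjusted p = 0.0200), a 3.11-fold higher signal, and the within-slide differences were 1.53, 1.83 and 1.55. Its probe lies at chr6:66964960-66965019 of mm8. The call did not hold without any 1 of mice No. 1, 3, 4, 5 and 6, at adjusted p between 0.0538 and 0.138, while the change stayed between 1.50 and 1.70. It was also lost in the 6 arrays of 5 h alone (limma, adjusted p = 0.0501) and with the array median as the scale (1.48, adjusted p = 0.0651). With a normexp background correction and the 75th percentile the change was 1.54 (adjusted p = 0.436). Among 19 tested members of the Gadd45 family and p53 target list, Gadd45a was the only one that passed and the only one with non-overlapping groups in the higher direction, and the list's median was -0.03.

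A probe assigned to Gimap5, a GTPase needed for lymphocyte survival, read 1.70, 1.48 and 1.41 in the livers with stem cells at 3 h, against -0.42, -0.37 and -0.33 with concanavalin A alone. It rose by 1.90 ± 0.17 (adjusted p = 0.00492). That probe, at chr6:48676977-48677036 of mm8, was designed on a lung cDNA clone, and the probe on the RefSeq transcript of Gimap5, at chr6:48683088-48683147, changed by -0.04. The 2 probes disagree, so the rise is of that probe and not of the gene as a whole. The other 5 tested members of the Gimap family had overlapping groups.

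Reg3g, an antibacterial C-type lectin, fell. Its probe read -5.15, -5.57 and -5.61 with stem cells at 3 h, where it was well above background in 0 of 3 livers, and -3.27, -3.45 and -3.29 with concanavalin A alone, where it was well above background in 3 of 3. The fall was at least 1.61-fold (adjusted p = 0.0200). The unnamed transcript 9130004C02Rik fell as well, at -5.80, -5.29 and -6.03 with stem cells at 3 h and -3.87, -4.02 and -3.31 with concanavalin A alone, which is at least 1.22-fold lower (adjusted p = 0.0200). Both probes were above background on 3 of the 12 liver arrays, those of concanavalin A alone at 5 h, and so met the detection filter through the group in which they were high; with no filter on dim probes the adjusted p was 0.0421 for each. The other call was Ptcra, which encodes the invariant chain of the pre-T cell receptor (adjusted p = 0.0200), read at -4.46, -4.72 and -4.47 with stem cells at 3 h and -6.72, -6.72 and -6.32 with concanavalin A alone. None of these 6 values was above background, so no fold is given. All of these calls sit at the dim end of the array: with a background correction that raises dim spots, Reg3g changed by -0.18, 9130004C02Rik by -0.07 and Ptcra by 0.55, with adjusted p = 0.999 for each.

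**Figure D1:**
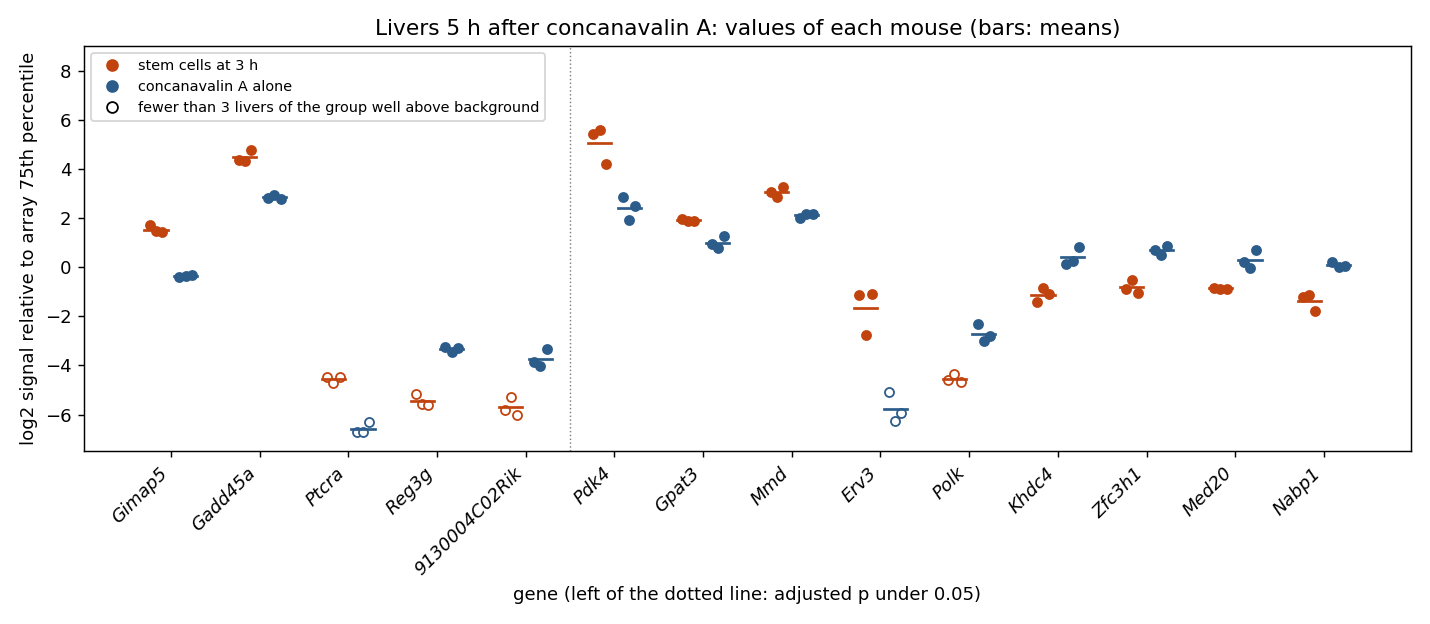
Log2 of signal over the 75th percentile of the array (vertical axis) of each mouse for 14 genes, with the 3 livers given stem cells at 3 h to the left of the 3 with concanavalin A alone in each pair and bars at the means. Left of the dotted line are the 5 genes with an adjusted p under 0.05. Open points mark groups in which fewer than 3 livers were well above background: of the called genes, Gimap5 and Gadd45a are the ones with filled points in both groups.

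Beyond these, 10 genes of small p lay higher without overlap. Pdk4, the kinase that shuts off pyruvate dehydrogenase when fatty acids are burned, was at 5.42, 5.56 and 4.18 with stem cells at 3 h and at 2.83, 1.90 and 2.50 with concanavalin A alone. All livers with stem cells were above all without, by 2.64 ± 0.45 (adjusted p = 0.126). The effect of immediate stem cells on Pdk4 at 2 h was -0.29. Gpat3, an acyltransferase of triglyceride synthesis, stood at 1.95, 1.88 and 1.88 with stem cells at 3 h and at 0.96, 0.78 and 1.25 with concanavalin A alone, a difference of 0.91 ± 0.15 (adjusted p = 0.126). Mmd, a gene named for monocyte to macrophage differentiation, was at 3.07, 2.85 and 3.25 with stem cells at 3 h and at 2.01, 2.18 and 2.16 with concanavalin A alone. Erv3, an endogenous retroviral sequence, was above background in 3 of 3 livers with stem cells at 3 h (-1.13, -2.77 and -1.08) and in 0 of 3 with concanavalin A alone (-5.08, -6.25 and -5.94), at least 6.25-fold higher (adjusted p = 0.124). P2ry10, a receptor of lymphocytes for lysophosphatidylserine, was above background in 3 of 3 livers with stem cells at 3 h and in 0 of 3 with concanavalin A alone, at least 1.92-fold higher (adjusted p = 0.126). The remaining 5 genes were Ccbe1, which acts in lymphatic growth (1.02 ± 0.18, with 0.32 and 0.48 in its other probes), Prickle1 of planar cell polarity (1.30 ± 0.24), Dph7 of diphthamide synthesis (0.82 ± 0.15), Gprin3 (0.93 ± 0.18) and the proton-sensing receptor Gpr65 (0.74 ± 0.15). None of these 10 genes passed the threshold over all 12 livers. That their groups did not overlap was a condition of their choice, which 12.7% of all genes met in this direction. Without the 2 livers of 2 h that stood apart, Erv3, P2ry10, Gpat3, Mmd and Ccbe1 passed.

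The genes of small p that lay lower did not pass the threshold over all 12 livers either. Khdc4, an RNA-binding protein, was at -1.42, -0.87 and -1.08 with stem cells at 3 h and at 0.12, 0.27 and 0.83 with concanavalin A alone, a difference of -1.53 ± 0.22 (adjusted p = 0.0660), and 4 of its 4 kept probes lay lower, the others by -1.22, -0.15 and -0.09. Zfc3h1, a zinc finger protein that directs polyadenylated nuclear RNA to the exosome, was at -0.87, -0.53 and -1.04 with stem cells at 3 h and at 0.71, 0.49 and 0.88 with concanavalin A alone. Its difference was -1.51 ± 0.22 (adjusted p = 0.0660), in the same direction in 6 of 6 probes, the others between -0.89 and -0.24. Med20, a subunit of the Mediator complex of transcription, was at -0.84, -0.87 and -0.89 with stem cells at 3 h and at 0.22, -0.05 and 0.68 with concanavalin A alone. Separate groups were a condition for the choice of these genes and of those below, which 9.45% of all genes met in this direction. Without the 2 livers of 2 h that stood apart Khdc4, Zfc3h1 and Med20 passed, as did Polk, Nabp1, Fut11 and Trim34a of the genes below. Polk, a translesion DNA polymerase, was lower by 1.83 on the log2 scale (-1.83 ± 0.25, adjusted p = 0.0538), with 1 of 3 livers with stem cells above background. The others were Edc3, an activator of mRNA decapping (-1.35 ± 0.21), the DNA ligase Lig3 (-0.99 ± 0.17), the single-stranded DNA binding protein Nabp1 (-1.46 ± 0.27), Pdrg1 (-0.87), the fucosyltransferase Fut11 (-1.90 ± 0.34), Rsrp1 (-1.56 ± 0.29) and the interferon-induced Trim34a (-1.39 ± 0.25). Polk, Edc3 and Fut11 are dim, and their changes depended on the processing. Over the alternatives they ran from -2.00 to -0.32 for Polk, from -1.58 to -0.23 for Edc3 and from -2.14 to -0.71 for Fut11.

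The list that stood lowest was the unfolded protein response. Its median change was -0.50 over 28 tested members, against 0.08 over all genes, and 24 of 28 members were below 0. In 13 of 28 the livers with stem cells lay wholly below the others and in 0 wholly above, against a background of 9.45% and 12.7%. An unadjusted p under 0.05 was reached by 14 members, all lower, and no member passed the adjusted limma test. The list's score, the median over members of the value minus the gene's mean, ran from -0.33 to -0.22 in the 3 livers with stem cells and from 0.18 to 0.33 in the 3 with concanavalin A alone. The within-slide medians were -0.57, -0.34 and -0.49.

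The response can be followed by the roles of its members; Hspa5, Hyou1, Manf, Syvn1, Hsp90b1, Dnajb11, Pdia6, Ppp1r15a, Atf4, Calr, Canx, Eif2ak3, Ern1, Atf6, Trib3 and Xbp1 were picked after their values were seen. Among secreted or lumenal cofactors, Creld2 was at 5.22, 4.88 and 5.05 with stem cells at 3 h and at 6.91, 6.58 and 6.52 with concanavalin A alone, a difference of -1.62 ± 0.39 (adjusted p = 0.209), with -1.70, -1.53 and -1.65 within the slides. Sdf2l1, a lumenal partner of DnaJ cochaperones, was at 1.30, 0.77 and 1.52 with stem cells at 3 h and at 2.24, 2.79 and 2.14 with concanavalin A alone. Manf, a secreted stress-induced factor, was at 3.75, 3.64 and 3.52 with stem cells at 3 h and at 4.56, 4.63 and 4.29 with concanavalin A alone. All 3 genes had groups that did not overlap.

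The lumenal chaperones lay lower by a smaller amount. Hspa5, which encodes BiP, the main chaperone and sensor partner of the compartment, was at 6.44, 6.45 and 6.41 with stem cells at 3 h and at 7.31, 7.15 and 6.90 with concanavalin A alone (-0.69 ± 0.26, adjusted p = 0.340). The livers with stem cells lay very close together and all below the others. Hsp90b1, the lumenal HSP90, differed by -0.51 ± 0.21, Hyou1, the nucleotide exchange factor of BiP, by -0.78 ± 0.33, the cochaperone Dnajb11 by -0.61 ± 0.22 and the disulfide isomerase Pdia6 by -0.39 ± 0.15, all with groups that did not overlap. The lectin chaperones lay near 0: Calr was at 4.80, 4.59 and 5.10 with stem cells at 3 h and at 4.97, 4.91 and 4.64 with concanavalin A alone (-0.01 ± 0.29), and Canx differed by -0.03 ± 0.16. For both the groups overlapped.

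Of the sensors, Eif2ak3, which encodes PERK, was at -1.21, -0.85 and -1.24 with stem cells at 3 h and at 0.59, -1.02 and -0.18 with concanavalin A alone, with overlap, while Ern1, which encodes IRE1, differed by 0.06 ± 0.30 and Atf6 by 0.14 ± 0.19. Of the degradation and signalling members, Syvn1, the ubiquitin ligase of the disposal route, was at 5.21, 5.32 and 5.12 with stem cells at 3 h and at 6.60, 5.45 and 6.34 with concanavalin A alone (-0.92 ± 0.28, adjusted p = 0.259). Ddit3, the transcription factor CHOP of the PERK branch, was at -1.47, -0.76 and -1.43 with stem cells at 3 h and at 0.99, -0.72 and 0.50 with concanavalin A alone. Mouse No. 5 lay just above the highest liver with stem cells, so the groups for Ddit3 were barely separate. Ppp1r15a, the phosphatase subunit that ends PERK signalling, was at 0.51, 1.22 and 1.08 with stem cells at 3 h and at 1.99, 1.74 and 1.74 with concanavalin A alone. Atf4 itself differed by -0.38 ± 0.21. Not all members lay lower: Trib3, a target of ATF4 and CHOP, stood at 1.34, 2.14 and 0.91 with stem cells at 3 h and at 1.23, -0.15 and -0.09 with concanavalin A alone, and Xbp1 differed by 0.20 ± 0.26, both with overlapping groups.

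**Figure D2:**
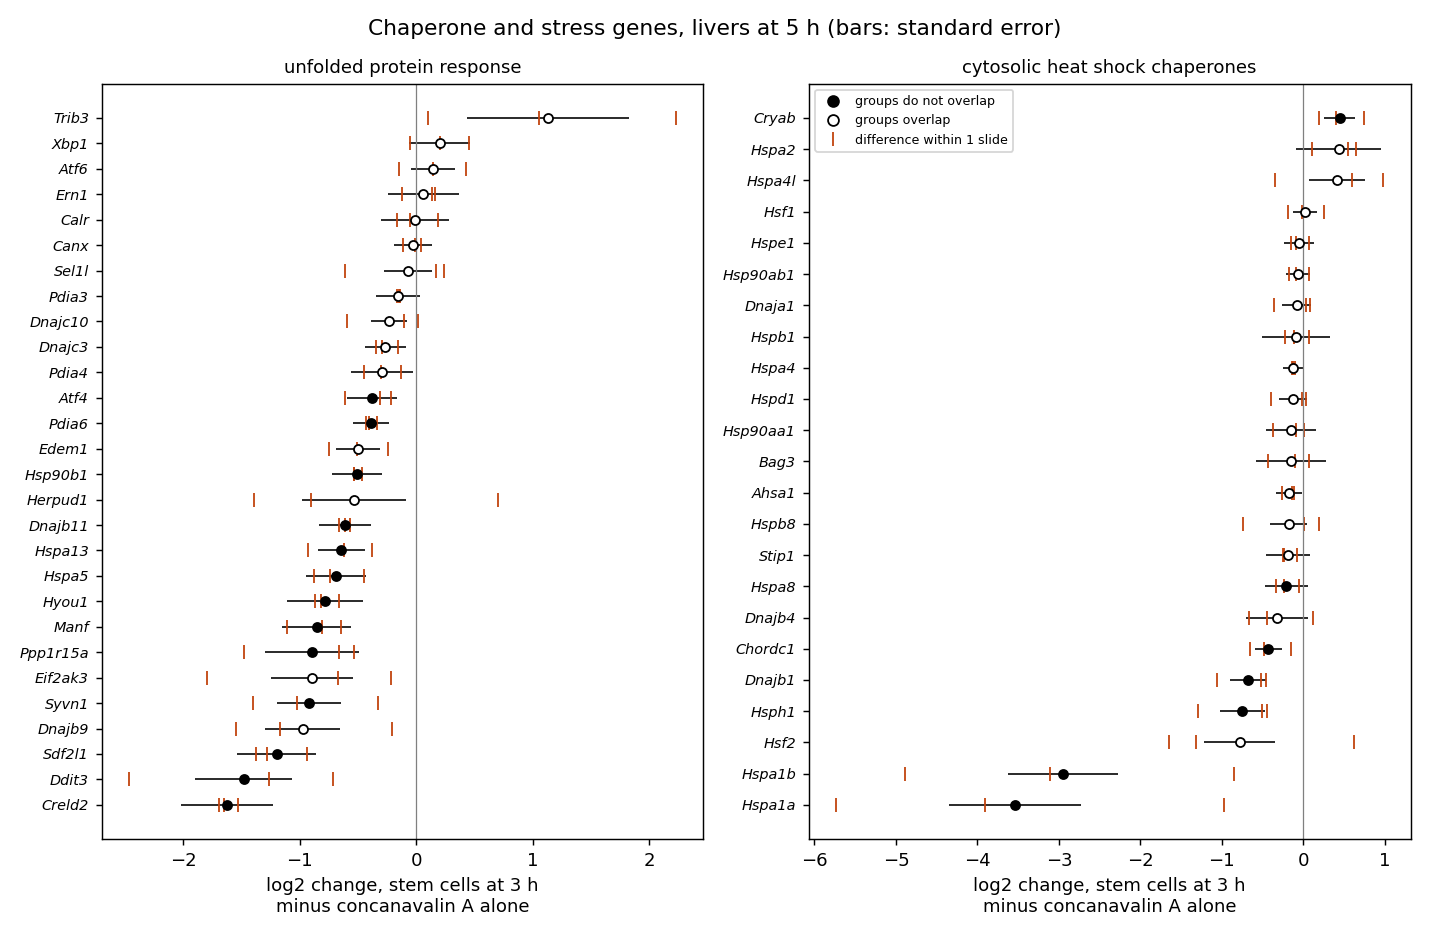
Log2 change of every tested member of the unfolded protein response (28 genes) and of the heat shock chaperone list (23 genes), stem cells at 3 h minus concanavalin A alone. Bars are 1 standard error of the limma fit. Filled points are genes whose livers do not overlap and red ticks are the differences within each slide. Of the response, 24 of 28 members lie below 0, some of them close to 0, and the highest is at 1.13. Among the heat shock genes Hspa1a (-3.54) and Hspa1b (-2.95) stand far from the rest.

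Promoters of 4 members are shown because a known sequence bound by ATF6, the endoplasmic reticulum stress element, allows members with and without it to be set side by side. The element was searched as CCAAT and CCACG with 9 free bases between them, on both strands, in windows of 250 bases before to 50 bases after the start, in RefSeq genes of GRCm38.p6. The Hspa5 window is chr2:34771840-34772139 on the plus strand, that of Creld2 is chr15:88819396-88819695 on the plus strand, that of Syvn1 is chr19:6046326-6046625 on the plus strand and that of Calr is chr8:84846882-84847181 on the minus strand. Capitals mark the matching bases, which begin 65, 126, 44 and 162 bases before the start, and in Creld2 and Calr the match is on the other strand:
Hspa5: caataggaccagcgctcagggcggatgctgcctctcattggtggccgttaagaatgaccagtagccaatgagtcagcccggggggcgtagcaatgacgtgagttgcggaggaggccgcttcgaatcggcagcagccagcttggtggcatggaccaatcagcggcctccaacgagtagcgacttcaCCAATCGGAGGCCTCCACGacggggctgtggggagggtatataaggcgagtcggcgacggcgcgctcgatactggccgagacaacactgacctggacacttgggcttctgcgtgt
Creld2: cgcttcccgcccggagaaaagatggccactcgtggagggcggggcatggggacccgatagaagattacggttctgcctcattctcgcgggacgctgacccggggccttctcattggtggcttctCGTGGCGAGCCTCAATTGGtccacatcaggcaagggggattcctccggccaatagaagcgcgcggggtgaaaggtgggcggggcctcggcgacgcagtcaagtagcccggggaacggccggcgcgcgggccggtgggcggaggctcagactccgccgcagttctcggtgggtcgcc
Syvn1: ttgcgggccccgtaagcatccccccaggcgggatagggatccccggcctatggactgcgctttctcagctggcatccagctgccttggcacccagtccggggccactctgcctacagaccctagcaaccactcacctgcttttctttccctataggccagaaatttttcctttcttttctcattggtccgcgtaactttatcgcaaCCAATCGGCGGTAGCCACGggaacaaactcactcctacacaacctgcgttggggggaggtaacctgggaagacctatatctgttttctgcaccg
Calr: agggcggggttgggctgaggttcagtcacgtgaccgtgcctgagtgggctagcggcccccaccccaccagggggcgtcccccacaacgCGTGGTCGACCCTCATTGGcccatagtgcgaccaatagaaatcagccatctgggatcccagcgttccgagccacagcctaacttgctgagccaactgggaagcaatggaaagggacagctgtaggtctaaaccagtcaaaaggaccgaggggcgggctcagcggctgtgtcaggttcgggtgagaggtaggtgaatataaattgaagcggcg
The element was found in 39 of 32851 windows (0.119%) and in 8 of the 24 listed genes that have a window: Hspa5, Hsp90b1, Dnajc3, Creld2, Pdia6, Calr, Canx and Syvn1. The median change was -0.45 in these 8 members, of which 5 had wholly lower livers with stem cells, and -0.44 in the 16 members without a match, of which 5 had. The medians of members with and without these letters lay close together, and of the promoters shown, that of Creld2 belongs to the lowest member and that of Calr to one near 0.

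The heat shock chaperones, most but not all of them cytosolic, were led by the inducible HSP70 genes. Hspa1a was at -1.11, -1.09 and 1.03 with stem cells at 3 h and at 4.63, 2.00 and 2.82 with concanavalin A alone. Hspa1b was at -2.61, -2.54 and -1.01 with stem cells at 3 h and at 2.28, -0.16 and 0.56 with concanavalin A alone. Both pairs of groups were separate but wide, with mouse No. 3 nearest to mouse No. 5. The difference was -3.54 ± 0.81 for Hspa1a (adjusted p = 0.202) and -2.95 ± 0.67 for Hspa1b (adjusted p = 0.195). The 2 genes are near-identical copies, and their probes may share signal. Within the slides, Hspa1a differed by -5.74, -0.97 and -3.91. Dnajb1, the HSP40 partner of HSP70, was at 2.29, 2.68 and 2.65 with stem cells at 3 h and at 3.35, 3.11 and 3.20 with concanavalin A alone, Hsph1, an exchange factor of HSP70, differed by -0.75 ± 0.28, and Chordc1, a cochaperone of HSP90, by -0.43 ± 0.16. Cryab, a small heat shock protein, lay the other way at 0.45 ± 0.19. Over the 23 tested members the median was -0.15, with 6 wholly lower and 1 wholly higher, and no member passed the limma test, while 5 lower and 1 higher had an unadjusted p under 0.05.

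Of the genes induced by interferon-gamma, the median was -0.44 over 30 tested members, with 25 below 0, and the livers with stem cells lay wholly below in 14 and wholly above in 2. The list score ran from -0.33 to -0.03 with stem cells at 3 h and from 0.10 to 0.37 with concanavalin A alone, and the within-slide medians were -0.53, -0.30 and -0.48. No member passed the limma test over all 12 livers, and 5 had an unadjusted p under 0.05, all lower. Without the 2 livers of 2 h that stood apart, 2 of the 30 passed, Wars and Gbp6 (adjusted p = 0.0477 each), where 0.205% of all genes passed as lower. Those 2 livers stood apart in Cxcl10, a member of this list, and leaving them out alters only the standard errors. The 2 calls are therefore not separate evidence of a change at 5 h.

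Wars, the tryptophanyl-tRNA synthetase that interferon-gamma induces, was at 2.62, 2.79 and 2.48 with stem cells at 3 h and at 3.62, 3.33 and 3.42 with concanavalin A alone (-0.83 ± 0.21, adjusted p = 0.220). Gbp6, a guanylate binding protein, was at 5.31, 5.24 and 5.44 with stem cells at 3 h and at 6.08, 6.18 and 5.97 with concanavalin A alone. The groups for Gbp6 were far apart with SDs of 0.10 and 0.11 (n = 3 each), and the within-slide differences were -0.77, -0.75 and -0.72, but the standard error that includes the livers of 2 h was 1.54. Igtp, an immunity-related GTPase, was at 7.30, 7.04 and 7.34 with stem cells at 3 h and at 8.11, 7.79 and 7.79 with concanavalin A alone. The transcription factor Irf1 was at 7.01, 6.81 and 6.83 with stem cells at 3 h and at 7.78, 7.51 and 7.25 with concanavalin A alone, without overlap.

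In antigen presentation, Ciita, the master regulator of MHC class II genes, was at -0.93, -0.62 and -0.93 with stem cells at 3 h and at 0.14, -0.36 and 0.02 with concanavalin A alone (-0.76 ± 0.19, adjusted p = 0.209). The immunoproteasome subunits Psmb8 and Psmb9 lay lower without overlap, by -0.46 ± 0.17 and -0.67 ± 0.36. Nos2, the inducible nitric oxide synthase, was at -4.58, -3.56 and -2.92 with stem cells at 3 h and at -2.18, -2.15 and -2.78 with concanavalin A alone. The chemokines that interferon-gamma induces did not share this: Cxcl10 was at 9.96, 9.61 and 9.92 with stem cells at 3 h and at 9.43, 9.57 and 9.15 with concanavalin A alone, all livers with stem cells above, by 0.45 ± 1.87 (adjusted p = 0.943). Cxcl11 lay on the same side, at 0.55 ± 1.68, without overlap, and Cxcl9 differed by 0.04 ± 1.53 with overlap. Igtp, Irf1, Psmb9, Nos2, Cxcl9 and Cxcl11 were named after their values were seen.

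**Figure D3:**
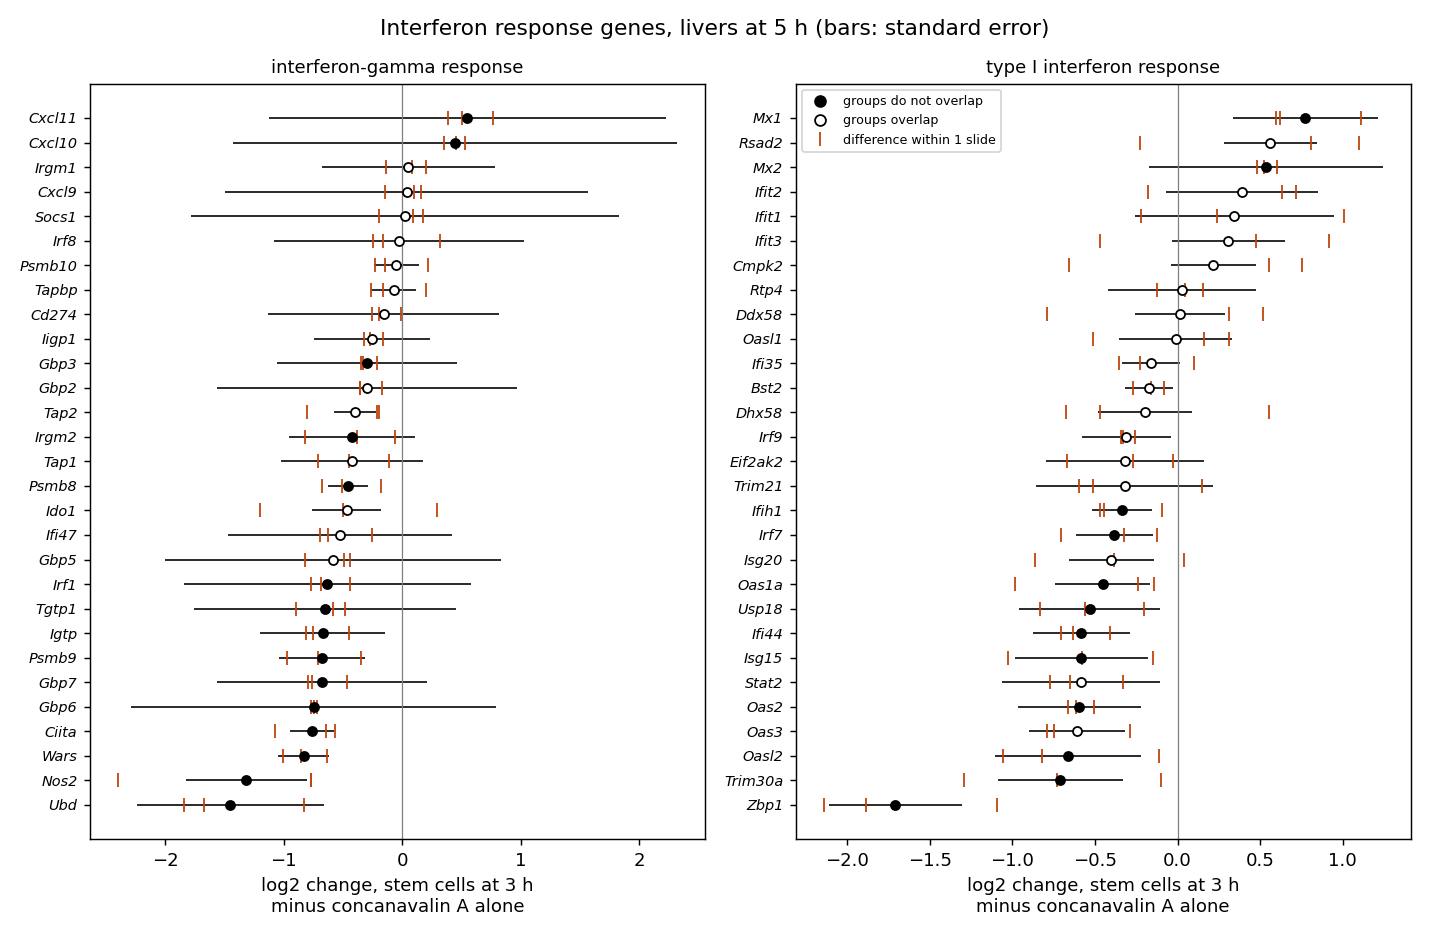
Log2 change of 29 of the 30 tested members of the interferon-gamma list and of all tested members of the type I interferon list (29 genes), stem cells at 3 h minus concanavalin A alone, with bars of 1 standard error of the limma fit; filled points are genes whose livers do not overlap and red ticks are the differences within each slide. Most members lie below 0 (25 of 30 and 20 of 29), and long bars, as for Cxcl10, come with genes that vary among the livers of 2 h.

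Of the type I interferon list, the median was -0.32 over 29 tested members, with 10 wholly lower and 2 wholly higher, and no member passed the limma test (1 lower at an unadjusted p under 0.05). The within-slide medians of -0.61, -0.11 and -0.23 were uneven. The list score ran from -0.22 to -0.01 with stem cells at 3 h and from -0.03 to 0.30 with concanavalin A alone, so the groups overlapped. Zbp1, a sensor of Z-form nucleic acid that can trigger necroptosis, was at 2.54, 3.10 and 2.37 with stem cells at 3 h and at 4.68, 4.25 and 4.19 with concanavalin A alone (-1.71 ± 0.40, adjusted p = 0.209). It passed without the 2 livers of 2 h that stood apart (adjusted p = 0.0310), where 0.205% of all genes passed as lower. Those livers stood apart in the interferon-induced Cxcl10, and leaving them out alters only the standard errors. This call is therefore not separate evidence either. Ifih1, the RNA sensor MDA5, differed by -0.34 ± 0.18. Ifi44 differed by -0.58 ± 0.29, and its other probe by 0.31. The antiviral GTPase genes Mx1 (0.77 ± 0.44) and Mx2 (0.53) were the members wholly higher with stem cells. Isg15, a ubiquitin-like modifier, was wholly lower, but its probe lies on another chromosome of mm8 than the gene in GRCm38.p6.

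The promoters of Igtp, which lay lower, and Cxcl10, which lay higher, carry the same short motif. The interferon-stimulated response element was searched as a pair of GAAA with 2 free bases between them, on both strands in the same windows. The Igtp window is chr11:58199306-58199605 on the plus strand and that of Cxcl10 is chr5:92348840-92349139 on the minus strand, both of GRCm38.p6 from RefSeq. Capitals mark the matching bases, which begin 34 and 213 bases before the start:
Igtp: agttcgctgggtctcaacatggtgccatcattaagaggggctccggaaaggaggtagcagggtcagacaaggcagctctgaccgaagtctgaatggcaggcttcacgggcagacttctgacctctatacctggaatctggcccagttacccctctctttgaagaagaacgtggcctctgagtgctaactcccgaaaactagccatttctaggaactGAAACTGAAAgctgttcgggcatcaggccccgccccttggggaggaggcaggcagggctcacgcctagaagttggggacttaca
Cxcl10: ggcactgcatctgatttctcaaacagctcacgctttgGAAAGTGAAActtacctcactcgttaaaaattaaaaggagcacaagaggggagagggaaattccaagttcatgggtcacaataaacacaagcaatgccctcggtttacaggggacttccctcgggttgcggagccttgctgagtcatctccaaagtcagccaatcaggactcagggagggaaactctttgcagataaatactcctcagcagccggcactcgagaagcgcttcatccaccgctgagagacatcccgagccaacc
The motif was found in 1131 of 32851 windows (3.44%), in 11 of 22 interferon-gamma genes and 14 of 23 type I interferon genes that have a window. In the interferon-gamma list the median change was -0.36 in the 10 tested members with a match and -0.42 in the 11 without. In the type I list it was -0.32 in 13 members with a match and -0.31 in 9 without. For the heat shock genes, the heat shock element was searched as 3 alternating triplets GAA and TTC with 2 free bases between them, starting with either triplet. It was found in 198 windows (0.603%) and in 4 of 19 members, Hsph1, Hspd1, Hspe1 and Chordc1. Their median was -0.28, against -0.18 in the 14 tested members without. Hspa1a and Hspa1b, the members with the largest falls, are among those without a match.

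Among the cytokines, Ifng and Il6 had overlapping groups. Ifng was at 2.61, 2.86 and 2.11 with stem cells at 3 h and at 1.62, 2.04 and 2.33 with concanavalin A alone (0.53 ± 0.81), and Il6 at 0.50, 0.72 and 0.56 with stem cells at 3 h and at -1.16, 0.57 and -0.17 with concanavalin A alone. Tnf was at -0.18, -0.21 and -0.50 with stem cells at 3 h and at 0.46, 1.07 and 0.95 with concanavalin A alone, wholly lower, by -1.12 ± 0.90 (adjusted p = 0.626). Il10 was above background in 1 of 3 livers of either group and differed by 0.07 ± 0.26, a value whose sign changed with the scaling. Ltb, the lymphotoxin beta subunit, was wholly lower at -0.97 ± 0.34. The list medians were -0.05 for T cell cytokines (15 tested, 2 wholly lower), -0.07 for myeloid inflammatory cytokines (17 tested, 2 wholly lower and 1 wholly higher), -0.06 for NF-kB targets (23 tested, 1 wholly lower and 2 wholly higher) and -0.05 for chemokines (29 tested, 3 wholly lower and 5 wholly higher).

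The chemokine Cxcl12, which holds CXCR4-bearing cells, was at 5.33, 4.89 and 4.76 with stem cells at 3 h and at 4.11, 4.68 and 4.11 with concanavalin A alone (0.69 ± 0.22, adjusted p = 0.282), and Cxcl13, the B cell attractant, differed by 0.80 ± 0.29. Ccl8 lay lower at -0.85 ± 0.61. Acute phase proteins had a median of -0.07 with 3 of 30 wholly lower, and STAT and SOCS genes one of 0.05. Among immediate early factors, 28 tested, Fos was at 0.65, 0.69 and -0.21 with stem cells at 3 h and at 2.17, 1.68 and 1.37 with concanavalin A alone (-1.36 ± 0.72, adjusted p = 0.460), while its partner Jun was at 3.36, 3.38 and 3.46 with stem cells at 3 h and at 2.99, 2.77 and 2.82 with concanavalin A alone (0.54 ± 0.17, adjusted p = 0.271). The AP-1 partners thus lay in opposite directions, each without overlap, and neither passed.

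Of 30 tested genes of the urea cycle and amino acid breakdown, 11 were wholly higher and 0 wholly lower, with a median of 0.28 and within-slide medians of 0.48, 0.16 and 0.22. The list score ran from 0.02 to 0.28 with stem cells at 3 h and from -0.16 to -0.08 with concanavalin A alone, and no member passed the limma test (2 higher at an unadjusted p under 0.05). Under other scalings the number of wholly higher members ran from 2 to 12. Agxt, which detoxifies glyoxylate, was at 8.09, 7.79 and 8.07 with stem cells at 3 h and at 7.50, 7.48 and 7.06 with concanavalin A alone (0.63 ± 0.23, adjusted p = 0.331). Hal, the histidine ammonia lyase, was at 5.80, 5.50 and 5.84 with stem cells at 3 h and at 5.19, 5.22 and 5.17 with concanavalin A alone. The hepatocyte markers themselves had a median of 0.21 over 18 genes, 1 of them wholly higher, and their part in the result was not tested.

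Cytochrome P450 and bile acid genes had a median of 0.22 over 30 genes (4 wholly higher, 2 wholly lower), in which the nuclear receptor Nr1i3, known as CAR, was at 3.12, 2.42 and 2.35 with stem cells at 3 h and at 1.58, 1.78 and 1.70 with concanavalin A alone (0.95 ± 0.23, adjusted p = 0.209). Cyp7b1, an oxysterol hydroxylase of bile acid synthesis, lay the other way, at 2.67, 2.64 and 3.63 with stem cells at 3 h and at 3.98, 4.02 and 4.32 with concanavalin A alone (-1.13 ± 0.32, adjusted p = 0.250). PPAR alpha and fatty acid oxidation genes, which include Pdk4, had a median of 0.21 (5 wholly higher and 1 wholly lower of 29), antioxidant genes 0.20 (3 and 1 of 25), clock genes 0.17 (5 and 0 of 19), and gluconeogenesis and glycogen genes 0.03 (3 and 2 of 26). Under other scalings the wholly higher members numbered 1 to 6 for fatty acid oxidation and 0 to 5 for clock genes. In the glycogen list, Ppp1r3c, a glycogen targeting subunit of a phosphatase, was wholly lower at -1.43 ± 0.61. Sterol and fatty acid synthesis had a median of 0.03 (2 and 3 of 29). Among clock output genes, Hlf differed by 0.89 ± 0.29 and Nfil3, a repressor that binds the same sites, by 0.66 ± 0.23, both wholly higher.

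Markers of cells other than hepatocytes lay on both sides of the median of all genes. In whole liver, fewer cells of a type and less RNA per cell cannot be told apart. Endothelial markers had a median of 0.42 over 22 genes, of which 8 were wholly higher and 0 wholly lower, with within-slide medians of 0.77, 0.10 and 0.42. Under other scalings 3 to 7 endothelial markers were wholly higher. Kdr, the VEGF receptor 2, was at 1.32, 0.85 and 1.12 with stem cells at 3 h and at -0.06, 0.65 and 0.14 with concanavalin A alone (0.85 ± 0.27, adjusted p = 0.277). Clec4g, a lectin of sinusoidal endothelium, was at 4.83, 4.26 and 4.43 with stem cells at 3 h and at 3.72, 4.24 and 3.47 with concanavalin A alone, and Robo4, an endothelial guidance receptor, at 3.67, 4.01 and 3.33 with stem cells at 3 h and at 3.09, 3.05 and 3.18 with concanavalin A alone. Mouse No. 5 was the closest of its group to the livers with stem cells for Kdr and Clec4g. Vegfa, the ligand of Kdr, was lower, at 3.72, 3.93 and 4.08 with stem cells at 3 h and at 5.09, 4.36 and 4.57 with concanavalin A alone (-0.76 ± 0.22, adjusted p = 0.254).

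Leukocyte markers differed by lineage. B cell markers had a median of 0.47 over 15 genes, 7 wholly higher and 0 wholly lower, with within-slide medians of 0.32, 0.41 and 0.50. The tetraspanin Cd37 was at -2.07, -3.17 and -1.03 with stem cells at 3 h and at -3.85, -3.55 and -3.36 with concanavalin A alone, while its other kept probe differed by 0.24. Vpreb3 was at -0.58, -0.81 and -0.90 with stem cells at 3 h and at -1.24, -1.68 and -1.75 with concanavalin A alone. Cd79a, which defines the lineage, was above background in 1 of 3 livers with stem cells at 3 h and in 0 of 3 with concanavalin A alone. Neutrophil markers had a median of 0.42 over 16 genes, 7 wholly higher and 1 wholly lower. The granule genes Camp, at 0.27, 0.17 and 0.23 with stem cells at 3 h and -0.59, -0.34 and -0.66 with concanavalin A alone, and Ngp, at 0.93, 1.00 and 1.08 with stem cells at 3 h and 0.21, 0.46 and 0.24 with concanavalin A alone, were tight within the groups and did not overlap. Neither passed (adjusted p = 0.530 and 0.631).

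T cell markers had a median of 0.19, with 7 of 18 wholly higher and 2 wholly lower. Cd3d (0.45 ± 0.14) and Cd3g (0.72 ± 0.24) of the receptor complex lay higher and Cd8a lower (-0.73 ± 0.27). Cd8b1 lay lower by -0.58 ± 0.12 (adjusted p = 0.163), but its probe lies on chromosome 5 of mm8 while the gene lies on chromosome 6 of GRCm38.p6, and the gene's other probe gave 0.04. NK and cytotoxic markers had a median of 0.01, monocyte markers -0.07 and dendritic cell and MHC class II markers 0.23 (5 wholly higher and 1 wholly lower of 15). Kupffer cell and macrophage markers had a median of 0.35 (4 of 18 wholly higher), but -0.10 within slide 2 against 0.75 and 0.29 within slides 1 and 3, with Clec4f at 0.38 ± 0.15 and Timd4 at 0.45 ± 0.17. Under other scalings the wholly higher members numbered 4 to 7 for B cells, 3 to 8 for neutrophils and 4 to 8 for T cells. They numbered 0 to 5 for Kupffer cells and 0 to 4 for dendritic cells. In all of these lists but the T cells, where the below-background Ptcra passed, the limma test called no gene; the B cell list held 2 higher genes at an unadjusted p under 0.05, the Kupffer list 4, the endothelial list 8 and the neutrophil list 0.

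Markers of adipose stromal cells, the type that was injected, had a median of 0.33 over 16 genes, all above background in all 6 livers, with 5 wholly higher and 2 wholly lower and within-slide medians of 0.54, 0.07 and 0.23. The list score ran from 0.05 to 0.34 with stem cells at 3 h and from -0.28 to -0.00 with concanavalin A alone. Under other scalings 2 to 6 of these markers were wholly higher. Nt5e, the ectoenzyme CD73, differed by 0.59 and the collagen-binding proteoglycan Lum by 0.60, while the lowest member of the list differed by -0.63. Several members are not particular to the injected type: Cd34 and Eng are also on the endothelial list and Thy1 on the T cell list. Markers of stellate and other mesenchymal cells, which share this expression and belong to the liver itself, had a median of 0.20 (3 of 20 wholly higher), with the collagen gene Col5a1 at 0.63 ± 0.19. Whether injected or resident cells carry these values was not tested. Of the 23 tested mediators by which stromal cells act on immune cells, 5 were wholly higher and 5 wholly lower, and the median was 0.04. Tgfb3 was at -0.31, -0.99 and -1.30 with stem cells at 3 h and at -1.91, -1.62 and -1.79 with concanavalin A alone, and Hgf, the hepatocyte growth factor, at -2.09, -1.77 and -1.94 with stem cells at 3 h and at -3.11, -2.11 and -2.78 with concanavalin A alone. Ptgs2, the inducible prostaglandin synthase, lay lower without overlap at -1.22 ± 0.79, and Lgals3, galectin 3, was at 2.06, 1.99 and 1.84 with stem cells at 3 h and at 3.01, 2.56 and 2.40 with concanavalin A alone (-0.69 ± 0.20, adjusted p = 0.254).

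Coagulation genes had a median of 0.11, in which Tfpi, the tissue factor inhibitor, was at -0.39, -1.08 and -0.54 with stem cells at 3 h and at -2.01, -1.58 and -1.69 with concanavalin A alone (1.09 ± 0.28, adjusted p = 0.221), while its other kept probes differed by 0.09 and 0.48. Plau, the urokinase gene, was above background with concanavalin A alone and not with stem cells, at least 1.55-fold lower (adjusted p = 0.170). Over the alternatives the log2 change of Plau ran from -2.05 to -0.11. Procr, the protein C receptor, lay lower at -0.83 ± 0.40. Death receptor, apoptosis and necroptosis genes had a median of -0.05 (6 wholly higher and 3 wholly lower of 28), with Ripk3 at -0.33 and Mcl1 at -0.57 ± 0.17, whose other probe gave 0.04. The medians were -0.13 for tRNA synthetases and amino acid stress, -0.20 for immediate early factors, -0.04 for red blood cell and platelet markers, 0.07 for iron and haem genes, 0.12 for bile duct markers and 0.15 for cell cycle genes. Under at least 1 other scaling the median changed sign for 14 lists: coagulation, iron, bile duct, cell cycle, glycogen, sterol synthesis, STAT and SOCS, stromal mediators, T cell cytokines, myeloid cytokines, the Gimap family, and markers of monocytes, NK cells and red blood cells.

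**Figure D4:**
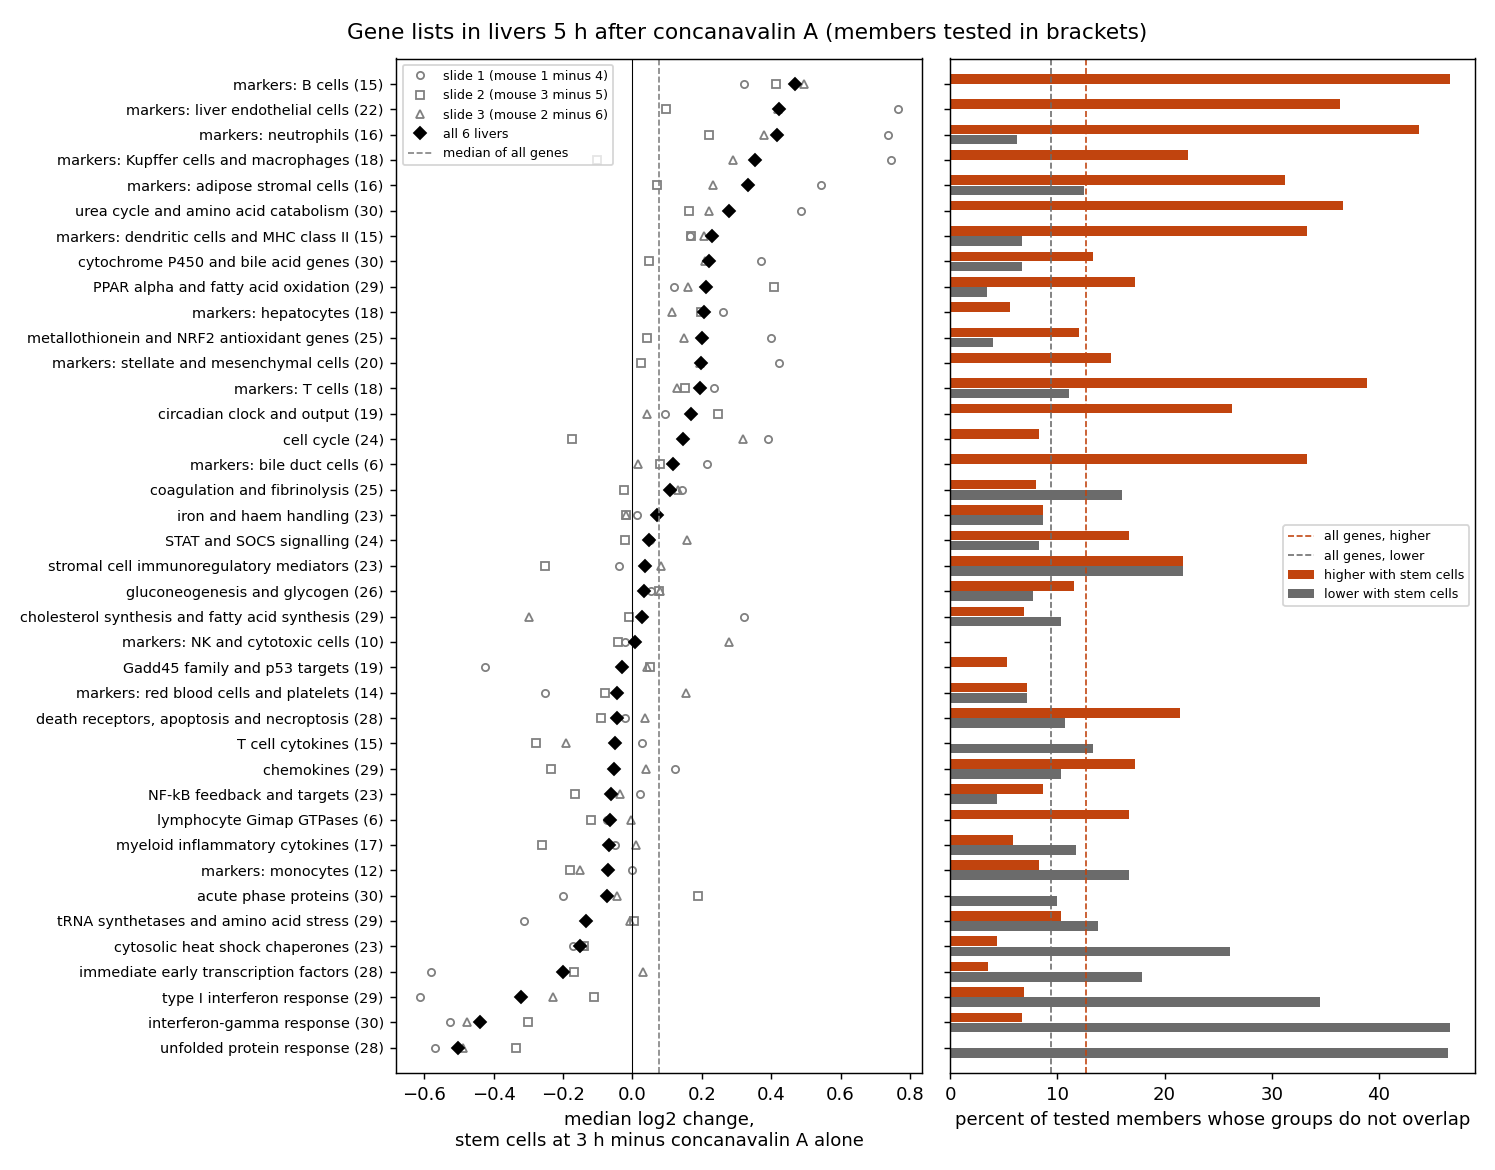
Left, median log2 change of each of 39 gene lists (stem cells at 3 h minus concanavalin A alone), with the medians within each slide as open symbols and the median of all genes as a dashed line; right, percent of tested members whose 3 livers with stem cells lie wholly above or wholly below the 3 with concanavalin A alone, with the shares over all genes (12.7% and 9.45%) as dashed lines. The unfolded protein response (-0.50) and the interferon-gamma response (-0.44) lie lowest and the B cell markers (0.47) highest.

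The same dose of cells given together with concanavalin A, with livers taken at 2 h, allowed a test of the difference between the schedules that shares no liver. The schedules differ both in when the cells were given and in the time after concanavalin A, and these cannot be told apart. The immediate schedule had 4 called genes at 2 h (0.0273%). The difference was called for 2 of 14651 genes (0.0137%), and 688 had an unadjusted p under 0.05. Tnfrsf23, a decoy receptor for TRAIL, differed between the schedules by 3.12 ± 0.33 (adjusted p = 0.0333), at 0.56 at 5 h and -2.56 at 2 h. The Gimap5 probe differed by 2.01 ± 0.23 (adjusted p = 0.0374), at 1.90 and -0.11. Neither call was stable: the count was 0 with the array median, 0 with a slide term, and 0 in 10 of the 12 fits that left out 1 mouse, 1 without mouse No. 4 and 18 without mouse No. 13. For the unfolded protein response the median effect was -0.50 at 5 h and -0.00 at 2 h, and for Creld2 the difference between the schedules was -1.56 ± 0.56 (adjusted p = 0.966). For the interferon-gamma list it was -0.44 at 5 h and -1.11 at 2 h, where mouse No. 10 stands in the group with stem cells and mouse No. 13 in the other, and for the type I list -0.32 and -0.93. No member of the 3 lists passed the test of the difference.

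The course without stem cells uses the same 3 livers of 5 h with concanavalin A alone, so its values are given side by side and not as separate evidence. Between 2 h and 5 h without stem cells, 946 genes rose (6.46%) and 1349 fell (9.21%). Of the unfolded protein response, 5 of 28 members rose and 0 fell, with a median of 0.51, and Creld2 rose by 1.83 (adjusted p = 0.0148). Hspa1a rose by 4.31 (adjusted p = 0.00928) and Wars by 2.09 (adjusted p = 0.00141) over these hours. Of the interferon-gamma list 11 of 30 rose and of the type I list 21 of 29, and 0 fell in either. The livers of 2 h in this comparison include mouse No. 13, which lay far below the others for Cxcl10. Its part in the rises of interferon genes, Wars among them, was not tested. Endothelial markers had a median of -0.73, with 9 of 22 fallen and 0 risen. In hepatic inflammatory cells at 5 h, 2 samples with stem cells at 3 h and 2 with concanavalin A alone, the median difference was -1.73 for the interferon-gamma list, -0.12 for the unfolded protein response and 0.06 over 13130 genes, on arrays of a slide of their own.

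**Figure D5:**
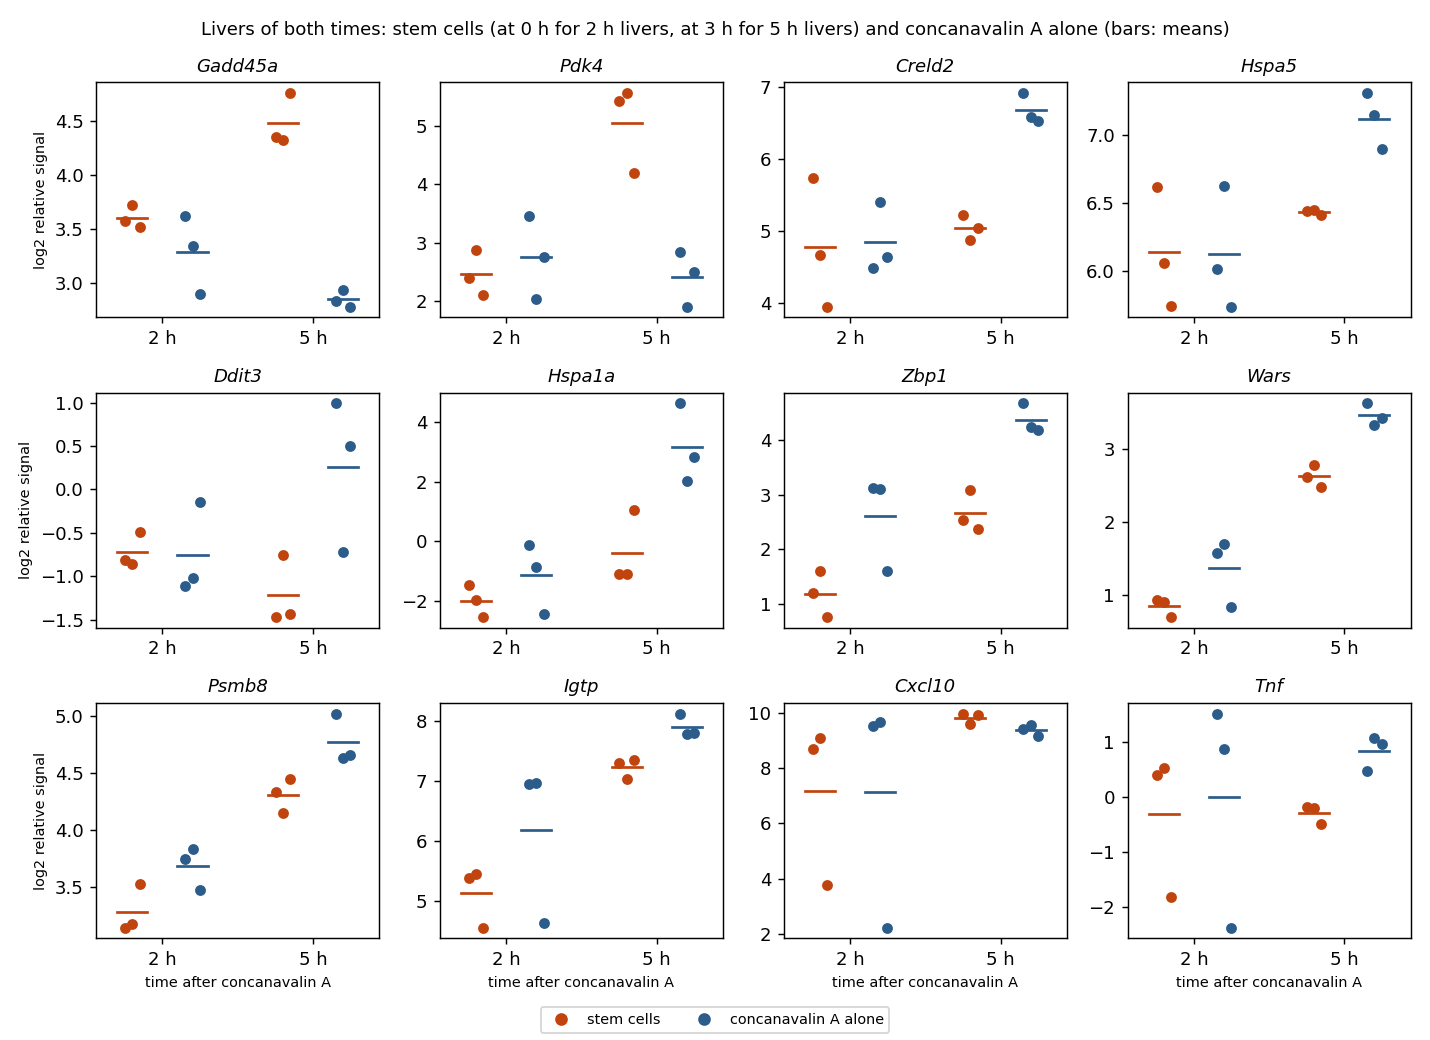
Log2 of signal over the 75th percentile of the array for each liver at 2 h and 5 h for genes of the report, with stem cells to the left of concanavalin A alone at each time and bars at the means; at 2 h the cells had been given together with concanavalin A. Creld2 and Hspa1a are higher at 5 h without stem cells than in the other groups, and for Cxcl10 the livers of mice No. 10 (3.75) and No. 13 (2.22) lie far below the rest.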

How the data were processed

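RNA of 16 samples was hybridised to 1-colour (Cy3) Agilent arrays, and the 6 livers of 5 h are described. The deposited scanner files hold spot intensity on a linear scale, background-subtracted per the file headers; the submitters' processing notes name Agilent Feature Extraction 10.5.1.1. The authors' value table held the same intensity. Between-array normalization is not given in the sources used here. Here, control and outlier spots were left out, and log2 of the deposited intensity minus the array's 75th percentile was used.

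A probe was kept if well above background on at least 3 of 12 liver arrays, and a gene was its kept probe with the highest mean. Of 41174 probes, 6306 had no gene symbol. All changes, standard errors and adjusted p-values come from limma 3.58.1 in R 4.3.3 (4 group means over 12 arrays, 8 residual degrees of freedom, 2-sided, Benjamini-Hochberg over 14651 genes, threshold 0.05). A group with no liver above background gives a bound. The fit was tested on simulated data: of genes changed by log2 1 in this comparison 42% were called, and of log2 2, 77%, with 6 false calls. That was a single draw with independent noise and many more planted changes than the 5 genes called here. The shares recovered therefore need not hold for these data. The number of arrays limits the precision: 3 against 3 livers cannot reach an exact permutation p under 0.1.

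The members and the 39 gene lists were chosen with earlier results of these data known. The rule names the called genes, 12 genes of smallest p in each direction without overlap (known symbols only, no Rik, Gm or accession names, and above background on at least 3 arrays of the brighter group), up to 3 per list without overlap, and a panel of 10 genes. Alb, Cd3g, Cd8a, Chordc1, Cryab, Dnajc3, Gbp6, Hgf, Hspd1, Hspe1, Hsph1, Isg15, Mx1, Mx2 and the genes so marked in the text were chosen after their values were seen. Alternatives covered background, scaling, filters, slide, array position, weights, probes and each mouse left out. Results for some list members are not reported here.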

Additional observations from a re-analysis of the deposited data

Results flagged for a closer look

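Of 14651 genes, 2 had an effect of stem cells that differed between the livers of 5 h and those of 2 h by a limma test of the difference itself. Tnfrsf23 differed by 3.12 on the log2 scale, with 0.56 at 5 h and -2.56 at 2 h. The probe assigned to Gimap5 differed by 2.01, with 1.90 at 5 h and -0.11 at 2 h. With the slide as a block the difference was called for 0 genes. The second probe of Gimap5 did not share the change at 5 h (-0.04).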

How the results depend on the processing

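The mice of the groups compared share no replicate numbers, so livers could be paired by slide and not by mouse. With the slide, which holds 1 liver of each group, as a block in the 12-array fit, 4 genes were called at 5 h, 3 of the 5 among them. The count of 5 genes called at 5 h was 1 with normexp and the 75th percentile, 2 with normexp and quantile normalization, 11 with the array median, 2 with genes above background on all 12 arrays, 141 with array weights and 48 without the 2 h mice No. 10 and 13. It was 0 in the 6 arrays of 5 h with the slide (2509 genes at an unadjusted p under 0.05) or the array position as a term (1752), where few residual degrees of freedom remain. Leaving out each of the 12 mice in turn gave 1 to 27. The count of 2 for the difference between 5 h and 2 h was 0 with normexp and the 75th percentile (228 at an unadjusted p under 0.05), the array median (626), no filter on dim probes (780) or the slide as a block (781). It was 1 with normexp and quantile, with the 75th percentile of detected probes, with genes above background on all 12 arrays, with the mean of a gene's probes and with probes chosen on the arrays of 5 h, and 55 without mice No. 10 and 13. Leaving out each mouse gave 0 to 18. Il10 changed sign with normexp and quantile (-0.016), quantile normalization (-0.18), the array median (-0.086) and without mouse No. 2, 3 or 5 (a range of -0.078 to 0.32 over the 6 mice of 5 h), and Gimap5 with the probe chosen on the arrays of 5 h (-0.042), an alternative chosen after seeing the data; the cause was not tested. Genes near 0 changed sign as well: Cxcl9 with normexp (-0.037 with the 75th percentile, -0.097 with quantile), quantile normalization (-0.085) and the array median (-0.12), Ern1 (-0.099) and Atf6 (-0.016) with the array median, and Calr with array weights (0.12). With each of the 6 mice of 5 h left out in turn, the change ran from -0.12 to 0.16 for Cxcl9, from -0.14 to 0.11 for Calr, from -0.087 to 0.0082 for Canx, from -0.20 to 0.065 for Hspe1 and from -0.073 to 0.24 for Ern1. The medians of the unfolded protein response (-0.66 to -0.52 over the scalings), interferon-gamma (-0.60 to -0.43), type I interferon and heat shock lists stayed below 0, and those of urea cycle, endothelial, B cell, neutrophil and Kupffer lists above 0, in 22 of 22 alternatives.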
